A study of Caenorhabditis elegans with 6 samples.

Results

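The 2 arrays titled biological replicate 3, a control array and an nhr-23 RNAi array, were compared with the 4 arrays titled replicates 1 and 2, out of 6 arrays in all. Their titles alone define them, and the comparison was drawn up with earlier results of these data known. The study hybridised RNA of Caenorhabditis elegans larvae of the wild-type strain N2, at the L2 larval stage, to Affymetrix expression arrays, with 3 control and 3 nhr-23 RNAi samples. In RNA interference by feeding, worms eat bacteria that make double-stranded RNA of the gene to be silenced. Here synchronised L1 larvae ate HT115 bacteria that carried either the empty vector L4440 or the same vector with a piece of the ligand-binding domain of nhr-23, on plates of 2% agarose, for 21 hours at 20 C, and 4 ug of total RNA was labelled. These conditions were the same in the labels of all 6 samples.

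The labels do not say whether samples of the same number shared a culture, a day or a hybridisation, or whether the 3 samples of a group came from separate cultures, so p-values measure only the spread between these samples. A growth protocol in the labels describes egg collection from flies, which cannot apply to worms, and it was not used. No label gives the age of the larvae beyond the hours on the plate. An effect of larval age cannot be told apart from any other property that the samples of replicate 3 share.

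A C. elegans larva molts at the end of each larval stage: its epidermis first lays down a transient precuticle matrix, then secretes the collagens of the new cuticle, and the old cuticle is shed. Many epidermal transcripts rise and fall once in every larval stage, and cuticle collagens follow each other in a known order, with those of the circumferential furrows early, dpy-13 and sqt-1 in the middle and col-12 late. Molting requires NHR-23, a transcription factor of the nuclear receptor family that is itself made in a cycle. Larvae collected a few hours apart within a stage can therefore differ in these genes, and the comparison asked which genes set the replicate 3 larvae apart in both groups.

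All values are the authors' log2 values per probe set, and in each gene's sentence they stand in the order of replicates 1, 2 and 3. A difference is the log2 value of replicate 3 minus that of replicates 1 and 2, from a limma fit with group as a covariate, given with its standard error (SE). A gene was called where the Benjamini-Hochberg adjusted p over all 22548 probe sets was under 0.05. The arrays had like medians, between 5.12 and 5.18, and control probe sets for bacterial RNA spiked into the hybridisation had means between 8.53 and 8.88. The difference between 3' and 5' probe sets of actin, a sign of RNA integrity, lay between 0.26 and 0.46 on all arrays, with 0.46 in control replicate 3 and 0.32 in RNAi replicate 3.

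The targeted gene had 2 probe sets, and neither was called for replicate 3. The brighter one read 8.27, 8.12 and 7.74 in controls and 7.67, 7.47 and 7.52 in RNAi arrays, a replicate 3 difference of -0.25 (SE 0.12, adjusted p = 0.387). The one called dimmer was so in controls only, and in RNAi arrays it was the brighter of the 2, above all controls. It read 6.60, 6.56 and 5.80 in controls and 8.76, 9.61 and 8.76 in RNAi arrays, a difference of -0.60 (adjusted p = 0.257). With the RNAi label the brighter probe set was lower and the dimmer higher at each of the 3 replicate numbers.

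The arrays of replicate 3 stood apart from the other 4. The first principal component held 50.1% of the variance between arrays and placed control and RNAi replicate 3 at 31.1 and 25.8, and the other 4 arrays between -24 and -10. Log2 differences between an array of replicate 3 and another array had an SD of 0.301 to 0.394 across probe sets, and those between 2 of the other arrays an SD of 0.186 to 0.276. Between the control and the RNAi array of replicate 3 the SD was 0.258. Replicate 3 arrays were therefore closer to each other, across treatments, than either was to an array of its own group.

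Replicate 3 differed in 613 probe sets, 350 of them lower (1.55% of 22548) and 263 higher (1.17%). The smallest adjusted p was 0.000324, and 3521 probe sets had an unadjusted p under 0.05. Called differences ran from -2.75 to -0.43 among those lower, with a median of -1.06, and from 0.40 to 2.33 among those higher, with a median of 0.79. In all 613, replicate 3 lay outside both other replicates on the same side in both groups, a pattern that 18.4% (below) and 16.1% (above) of all probe sets also showed. The fit favours probe sets that shift alike in both groups, so this agreement follows largely from the calling. With 1 probe set for each of 17118 genes, 267 genes were lower (1.56%) and 214 higher (1.25%). These 2 shares are the background for the counts of each list below, and at such shares a short list can hold 0 or 1 called genes. Of the 17118 genes, 2673 had an unadjusted p under 0.05, and 9089 differences were negative and 8024 positive. These are the background where such counts are given for a list. At the threshold, mup-4, F37B12.1 and pole-1 had adjusted p of 0.04906, 0.04934 and 0.04994 and were called, and drd-5, clec-227 and pst-1, with 0.05002, 0.0501 and 0.05028, were not.

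The differences were then read in each group by itself, since no sample is shared between the groups. In controls alone, 269 probe sets were at least 2-fold lower in replicate 3 and outside both others. In RNAi arrays 252 of them (93.7%) were also below both others and 1 was above, where 34.3% of all probe sets were below. Of 289 chosen as higher in controls, 214 (74%) were also above both others in RNAi arrays and 9 were below, where 34.7% of all were above. Chosen in the RNAi arrays instead, 220 of 221 lower probe sets (99.5%) were also below both others in controls, where 43.7% of all were. Of 162 higher ones, 150 (92.6%) were above both others in controls, where 35.4% of all were. Either way of choosing, the share that recurred was larger among lower than among higher probe sets, and the difference of these shares was not tested.

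**Figure D1:**
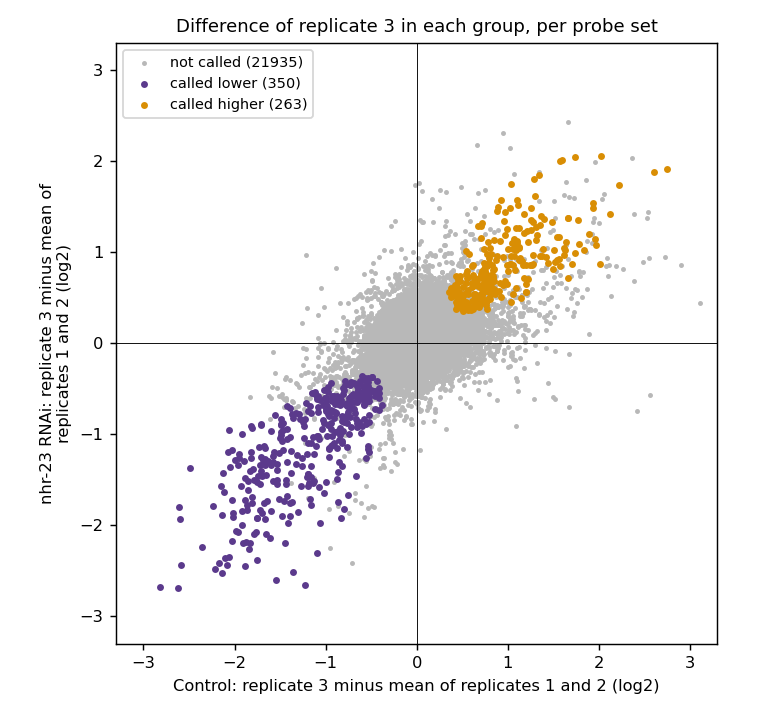
Each point is a probe set, with its difference of replicate 3 from the mean of replicates 1 and 2 in controls on the horizontal axis and in nhr-23 RNAi arrays on the vertical axis, both in log2 units. The 350 probe sets called lower lie in the lower left and the 263 called higher in the upper right, with no called probe set in the other corners. The calling used both groups together and favours such points.

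At least 2-fold differences in both groups were found for 150 lower and 90 higher probe sets, of which 145 and 59 were called. No probe set was 2-fold lower in replicate 3 of 1 group and 2-fold higher in the other while lying outside both replicates in each. The interaction of replicate 3 with group, tested with limma, gave 0 calls with a smallest adjusted p of 0.735, and 1420 probe sets had an unadjusted p under 0.05, 53 of them among the 613.

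The furrow collagens, needed for the ring-like grooves of the cuticle and whose loss gives short, dumpy worms, were lower in replicate 3 in 5 of 5 measured genes, where 1.56% of all genes were. The gene dpy-7 read 11.08, 10.68 and 8.77 in controls and 9.74, 9.74 and 8.11 in RNAi arrays. The gene dpy-8 read 11.08, 10.47 and 8.54 in controls and 8.89, 9.18 and 7.25 in RNAi arrays. In both genes replicate 3 was lowest in its group. dpy-7 fell by 1.87 log2 units (SE 0.15, 3.66-fold, adjusted p = 0.00297) and dpy-8 fell by 2.01 (SE 0.19, 4.04-fold, adjusted p = 0.00469). In RNA from whole larvae, fewer cells of a type and less RNA per cell cannot be told apart.

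In the other furrow collagens replicate 3 was also the lowest of its group. dpy-2 read 10.85, 10.51 and 8.76 in controls and 10.16, 9.84 and 8.16 in RNAi arrays, and fell by 1.88 (SE 0.13, adjusted p = 0.0026). dpy-3 read 11.29, 10.86 and 9.08 in controls and 9.13, 9.16 and 7.87 in RNAi arrays, and fell by 1.64 (SE 0.19, adjusted p = 0.00817). dpy-9 read 9.996, 9.53 and 8.05 in controls and 8.78, 8.70 and 7.49 in RNAi arrays, and fell by 1.48 (SE 0.16, adjusted p = 0.00683). In each of these 5 genes the control array of replicate 3 read lower than both RNAi arrays of replicates 1 and 2. The list's mean log2 value was 10.86, 10.41 and 8.64 in controls and 9.34, 9.32 and 7.77 in RNAi arrays. As replicate 3 was lowest in both groups, the signs of these differences could not turn when a single array was left out. Leaving out control replicate 3 kept all 5 signs but 0 of the 5 calls (adjusted p up to 0.115 over the arrays left out in turn), and leaving out RNAi replicate 3 kept all 5 calls. A second probe set of dpy-2 (difference -2.02, adjusted p = 0.00131) was called without each array in turn. With no term for group, dpy-3, dpy-7, dpy-8 and dpy-9 were not called either (adjusted p from 0.0624 to 0.294).

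Of 13 other collagens known for their part in body shape, 1 was called, and the median difference was -0.19. In 6 of the 13 replicate 3 lay below both others in both groups, where 18.5% of all genes did. An unadjusted p under 0.05 was found by limma for 5 of the 13. The called gene was lon-3, a collagen that limits body length. It read 9.36, 8.84 and 7.73 in controls and 8.71, 8.88 and 7.05 in RNAi arrays, and was 2.94-fold lower (difference -1.56, SE 0.16, adjusted p = 0.00663), a call lost when either replicate 3 array was left out. The mid-cycle collagen sqt-1 read 10.48, 10.18 and 9.50 in controls and 9.34, 10.23 and 7.86 in RNAi arrays (difference -1.38, SE 0.31, adjusted p = 0.0789). Its size rested on the RNAi array, at -1.93 without control replicate 3 and -0.83 without RNAi replicate 3. rol-6, another collagen of body shape, read 10.42, 10.14 and 9.60 in controls and 9.28, 10.19 and 8.09 in RNAi arrays (difference -1.16, SE 0.30, adjusted p = 0.111).

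In dpy-13, dpy-5 and bli-1, which were named whatever their values, replicate 3 lay within or next to the range of the others. dpy-13 read 13.49, 13.43 and 13.58 in controls and 12.95, 13.56 and 13.39 in RNAi arrays (difference 0.13, SE 0.16, adjusted p = 0.776). dpy-5 read 11.40, 11.32 and 11.47 in controls and 10.001, 11.25 and 9.90 in RNAi arrays (difference -0.31, SE 0.34, adjusted p = 0.74). bli-1, a collagen of the adult cuticle, was dim, between 4.09 and 4.49 on all arrays (difference 0.04, adjusted p = 0.914).

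Among collagens named col with a number, more were higher than lower. Of 128 measured, 11 were called higher and 3 lower, replicate 3 was above both others in both groups in 66 and below in 9, and the median difference was 0.15, where that of all genes was -0.01. Over all genes, replicate 3 lay above in 16.1% and below in 18.5%. The late collagen col-12 read 10.45, 10.998 and 11.87 in controls and 10.76, 10.81 and 11.72 in RNAi arrays, and rose 2.05-fold (difference 1.04, SE 0.15, adjusted p = 0.0201). col-39 read 8.05, 9.42 and 10.75 in controls and 8.53, 8.61 and 10.62 in RNAi arrays, and rose 4.10-fold (difference 2.04, SE 0.33, adjusted p = 0.0276). In col-39 control replicate 2 lay midway between its neighbours, and the call was lost with a trended robust prior (adjusted p = 0.0697) and in the model with an interaction (adjusted p = 0.0566).

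Other numbered collagens were also called higher. col-91 read 6.87, 7.71 and 8.89 in controls and 6.70, 6.66 and 8.69 in RNAi arrays (difference 1.80, SE 0.22, adjusted p = 0.0107). col-77 read 6.35, 6.77 and 8.10 in controls and 6.11, 6.32 and 7.38 in RNAi arrays (difference 1.36, SE 0.15, adjusted p = 0.00792). col-107 rose by 1.55 (SE 0.26, adjusted p = 0.0335), a call lost with the trended robust prior (adjusted p = 0.0652). Of the 3 numbered collagens called lower, col-149 read 11.53, 11.10 and 9.71 in controls and 11.84, 11.54 and 9.85 in RNAi arrays (difference -1.72, SE 0.15, adjusted p = 0.00339), and its second probe set gave -0.21 (adjusted p = 0.699). col-128 was also lower (difference -1.60, SE 0.24, adjusted p = 0.0216), with adjusted p = 0.216 when group was not in the fit. Of the 14 called, 0 were called without control replicate 3 and 1 without RNAi replicate 3. Collagen genes are close copies of each other, and a probe set can read more than 1 of them.

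**Figure D2:**
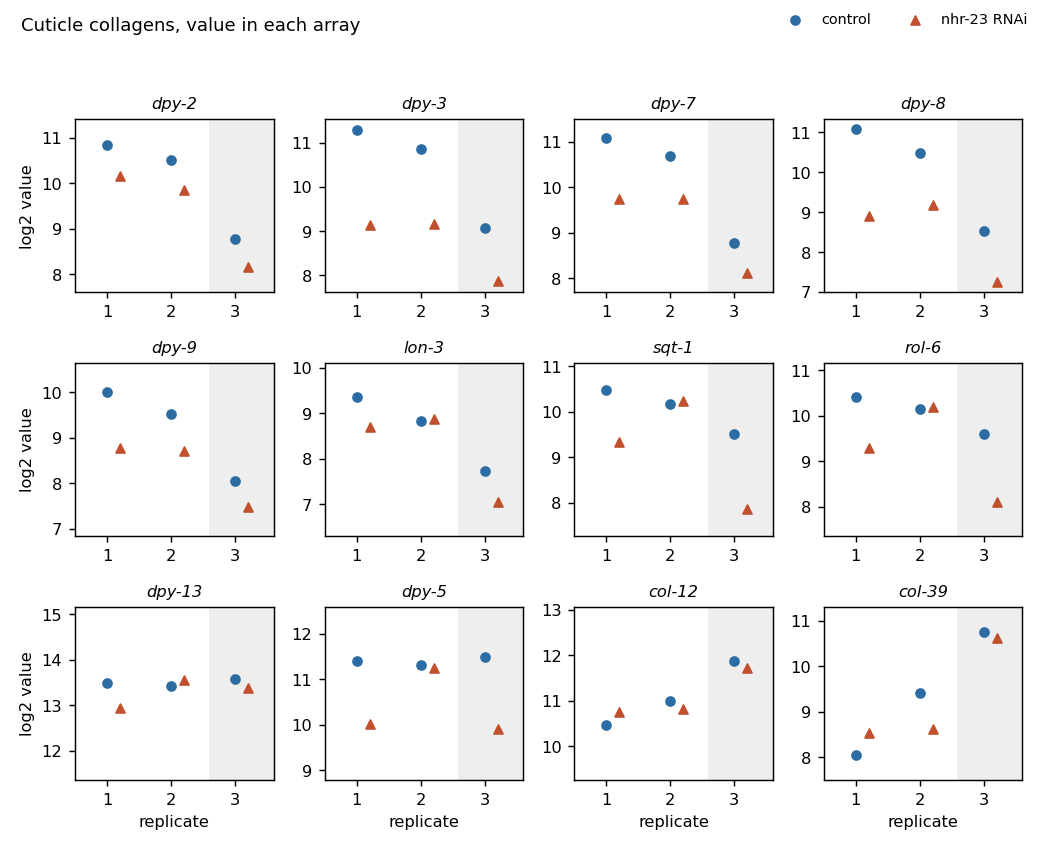
Log2 value of 12 cuticle collagens on each array, by replicate number, with circles for control and triangles for nhr-23 RNAi and replicate 3 shaded. The furrow collagens dpy-2, dpy-3, dpy-7, dpy-8 and dpy-9 and also lon-3 are lowest in replicate 3 in both groups. So are sqt-1 and rol-6, which were not called. col-12 and col-39 are highest there, and dpy-13 and dpy-5 show no shared shift.

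In a list drawn up for collagen processing, 3 of 14 genes were called lower (21.4%, where 1.56% of all genes were), with a median difference of -0.32. Its largest fall was that of glf-1, an enzyme of sugars and not of collagen itself. glf-1, the UDP-galactopyranose mutase that makes a sugar of the worm's surface coat, read 9.05, 8.73 and 7.44 in controls and 7.80, 8.17 and 6.25 in RNAi arrays (difference -1.59, SE 0.15, adjusted p = 0.00436). dpy-18, a subunit of the prolyl 4-hydroxylase of procollagen, fell by 0.58 (SE 0.08, adjusted p = 0.0166). dpy-11, a thioredoxin-like protein of the epidermis, fell by 0.85 (SE 0.16, adjusted p = 0.0419). All 3 calls were lost without control replicate 3, without RNAi replicate 3 and, at adjusted p from 0.104 to 0.123, with no term for group.

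The precuticle, a transient matrix that coats the epidermis before the collagens of the new cuticle are laid down, had 8 of 10 measured genes called lower and none higher. Its median difference was -1.37, and all 10 genes were negative. lpr-3, a secreted lipocalin of this matrix, read 12.01, 11.78 and 10.09 in controls and 11.28, 11.24 and 9.57 in RNAi arrays, and fell 3.36-fold (difference -1.75, SE 0.10, adjusted p = 0.00131). It was the precuticle gene still called without control replicate 3 and also without each other array in turn. The lipocalin lpr-1 read 8.41, 7.90 and 6.31 in controls and 7.52, 7.22 and 5.86 in RNAi arrays (difference -1.68, SE 0.17, adjusted p = 0.0053).

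Proteins with zona pellucida domains and with leucine-rich repeats make up most of the rest of this list. noah-2, a zona pellucida protein needed for molting, read 11.88, 11.69 and 10.09 in controls and 11.41, 11.16 and 9.83 in RNAi arrays (difference -1.58, SE 0.11, adjusted p = 0.0026). Its relative noah-1 read 12.43, 12.25 and 11.53 in controls and 11.92, 12.12 and 11.17 in RNAi arrays (difference -0.83, SE 0.10, adjusted p = 0.00904), and a second probe set gave -1.56. fbn-1, a fibrillin-like protein, read 9.47, 9.21 and 7.54 in controls and 8.85, 8.19 and 7.59 in RNAi arrays (difference -1.37, SE 0.25, adjusted p = 0.0392). These were lower in replicate 3 of both groups, with a wider gap among controls for fbn-1.

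The leucine-rich repeat proteins behaved alike. let-4 read 8.71, 8.33 and 7.09 in controls and 8.23, 7.89 and 6.75 in RNAi arrays (difference -1.37, SE 0.14, adjusted p = 0.00614). sym-1 read 11.38, 10.92 and 9.61 in controls and 10.89, 10.74 and 9.42 in RNAi arrays (difference -1.47, SE 0.14, adjusted p = 0.00448), and its second probe set gave -0.28 (adjusted p = 0.227). Of the 8 called precuticle genes, 1 was called without control replicate 3 and 4 without RNAi replicate 3.

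Genes known for molting defects, a list that shares several members with the precuticle, had 12 of 28 called lower and none higher, with a median difference of -0.56. nas-37, a secreted astacin metalloprotease that helps to shed the old cuticle, read 8.07, 7.81 and 5.98 in controls and 7.05, 6.88 and 5.63 in RNAi arrays (difference -1.65, SE 0.16, adjusted p = 0.00471). mlt-9 read 9.98, 9.76 and 8.46 in controls and 9.13, 9.54 and 7.36 in RNAi arrays (difference -1.69, SE 0.17, adjusted p = 0.0055). qua-1, a hedgehog-related protein needed for molting, read 9.33, 9.15 and 7.70 in controls and 8.64, 9.11 and 6.28 in RNAi arrays (difference -2.07, SE 0.24, adjusted p = 0.00927). In these 3 genes replicate 3 lay below all 4 other arrays in both groups.

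The molting gene mlt-10 did not pass the test. It read 8.12, 8.16 and 7.47 in controls and 7.49, 8.21 and 7.22 in RNAi arrays (difference -0.65, SE 0.18, adjusted p = 0.145). Among astacin proteases as a family, 2 of 36 were lower (5.56%) and 1 higher (2.78%), with a median of 0.08. Among all genes 1.56% were lower and 1.25% higher. The lower astacins were nas-37 and nas-4 (difference -1.60, SE 0.24, adjusted p = 0.0215), and the higher one was nas-9 (difference 0.81, SE 0.14, adjusted p = 0.0321). Of the 12 molting genes, 4 were called without control replicate 3 and 5 without RNAi replicate 3. None of 34 cuticlins, which build the ridges and other parts of the cuticle that are not collagen, was called by limma, and 6 had an unadjusted p under 0.05. Of all 17118 genes, 2673 had such a p.

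Hedgehog-related proteins, secreted by the worm's epidermis, split in both directions, with 7 of 54 lower (13%) and 4 higher (7.41%) and a median of -0.01. Among all genes 1.56% were lower and 1.25% higher. wrt-1 read 10.30, 9.92 and 8.03 in controls and 9.07, 9.61 and 6.90 in RNAi arrays, and fell 4.79-fold (difference -2.26, SE 0.18, adjusted p = 0.00297). wrt-2 read 10.82, 10.36 and 8.57 in controls and 9.25, 9.63 and 7.53 in RNAi arrays (difference -1.96, SE 0.16, adjusted p = 0.00303), and wrt-10 fell by 1.61 (SE 0.17, adjusted p = 0.00683). grl-10 read 7.33, 7.26 and 6.28 in controls and 6.96, 7.16 and 5.41 in RNAi arrays (difference -1.33, SE 0.15, adjusted p = 0.00817). The 3 warthog genes and grl-10 were lowest in replicate 3 of both groups.

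Of the members that rose, 2 are given here. grl-4 read 7.07, 7.87 and 8.84 in controls and 7.23, 7.38 and 8.71 in RNAi arrays (difference 1.38, SE 0.20, adjusted p = 0.0197). grd-10, a hedgehog-related gene of the seam cells, read 7.92, 8.46 and 9.25 in controls and 8.54, 8.17 and 9.39 in RNAi arrays (difference 1.04, SE 0.17, adjusted p = 0.029). Neither replicate 3 value overlapped the others of its group. Of the 11 hedgehog-related calls, 2 were made without control replicate 3 and 4 without RNAi replicate 3.

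Patched-related proteins are membrane proteins, several of which act in the epidermis in secretion and molting. Of 28, 7 were lower (25%) and 1 higher (3.57%), where 1.56% and 1.25% of all genes were, with a median of -0.14. ptr-4 read 9.53, 9.16 and 7.82 in controls and 8.57, 8.73 and 7.15 in RNAi arrays (difference -1.52, SE 0.12, adjusted p = 0.00297). ptr-15 read 8.29, 7.88 and 6.23 in controls and 7.83, 7.56 and 6.08 in RNAi arrays (difference -1.73, SE 0.14, adjusted p = 0.0031). daf-6, which shapes the lumen of sensory glia, read 7.72, 7.02 and 5.94 in controls and 6.41, 6.44 and 4.92 in RNAi arrays (difference -1.47, SE 0.18, adjusted p = 0.0107). These 3 were lower in replicate 3 by more than the spread of replicates 1 and 2 within each group. The dispatched-related che-14 fell by 0.70 (SE 0.11, adjusted p = 0.0221). Of the 8 calls, 0 were made without control replicate 3 and 2 without RNAi replicate 3.

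**Figure D3:**
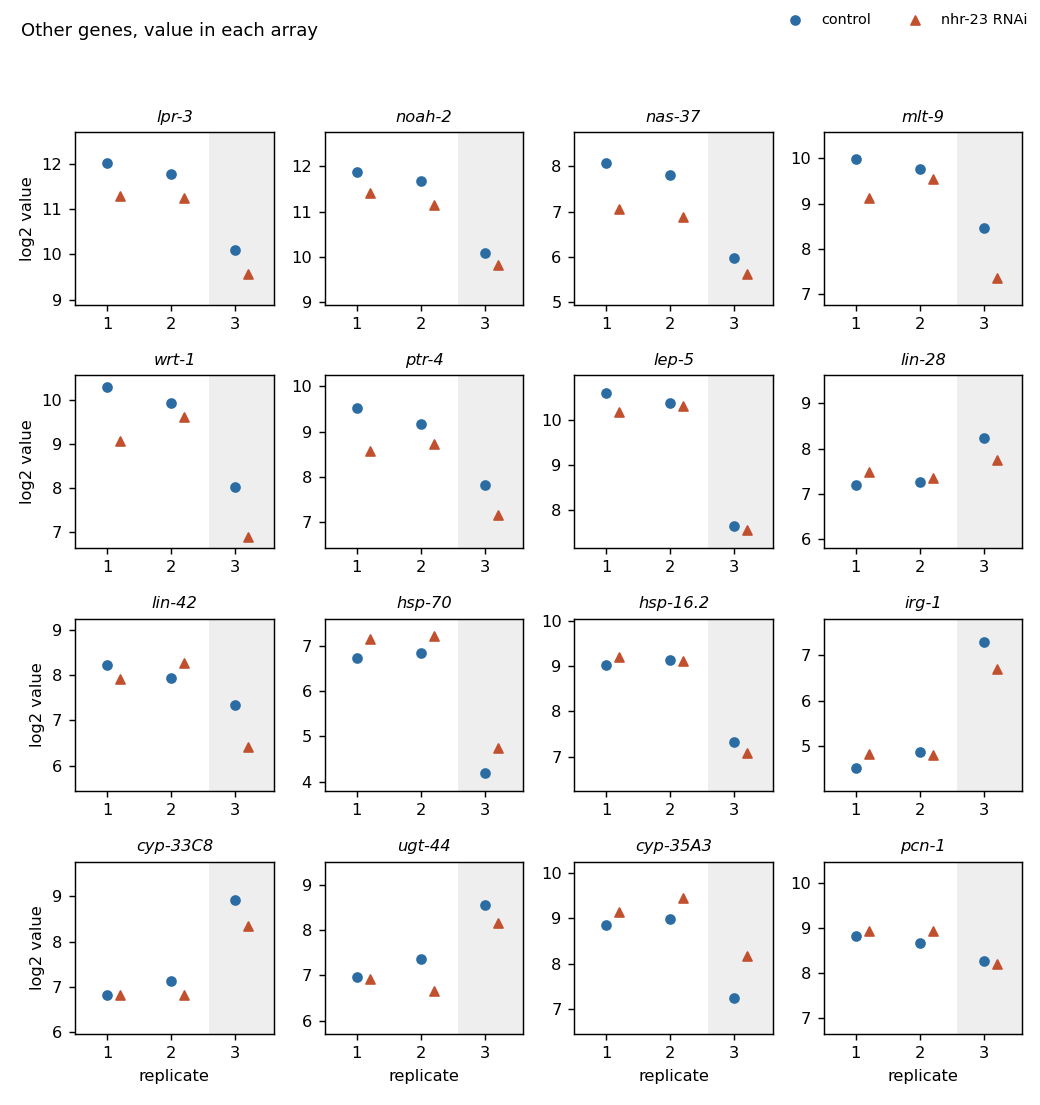
Log2 value of 16 genes outside the collagens on each array, by replicate number, with circles for control and triangles for nhr-23 RNAi and replicate 3 shaded. The matrix, molting and heat shock genes are lowest in replicate 3 of both groups, irg-1, cyp-33C8 and ugt-44 are highest there, and lin-28 is higher mainly in the control array.

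The largest difference of all was that of lep-5, a long non-coding RNA of developmental timing encoded on the X chromosome. It read 10.59, 10.36 and 7.66 in controls and 10.16, 10.31 and 7.56 in RNAi arrays, and was 6.72-fold lower in replicate 3 (difference -2.75, SE 0.10, adjusted p = 0.000324). The 4 other arrays lay between 10.16 and 10.59, and the call was kept without each array in turn.

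Among 15 genes of the heterochronic pathway, which sets the order of larval stages, 2 were lower and 0 higher. lin-42, the worm's relative of the clock gene Period, whose transcript cycles with the molts, read 8.23, 7.94 and 7.33 in controls and 7.91, 8.27 and 6.42 in RNAi arrays (difference -1.21, SE 0.22, adjusted p = 0.0403). Leaving out control replicate 3 gave a difference of -1.67, and leaving out RNAi replicate 3 gave -0.75. Neither was called. lin-29, a zinc finger transcription factor of late larval fates, read 7.63, 7.24 and 6.47 in controls and 7.08, 7.25 and 6.27 in RNAi arrays (difference -0.93, SE 0.12, adjusted p = 0.014). Its call was lost when either replicate 3 array was left out.

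lin-28, an RNA-binding protein of early larval fates, was not called in this fit. It read 7.20, 7.26 and 8.23 in controls and 7.48, 7.35 and 7.74 in RNAi arrays (difference 0.67, SE 0.15, adjusted p = 0.0824), with 0.33 without control replicate 3 and 1.01 without RNAi replicate 3. In the model with an interaction it passed the threshold (adjusted p = 0.0251), and its other probe sets gave 0.15 and 0.24. lin-14, another early timing gene, was dim, between 3.27 and 3.66 on all arrays (difference -0.27, adjusted p = 0.256).

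Of 18 regulators of the molting cycle, lin-42 and peb-1 were called, both lower. peb-1, a DNA-binding protein needed for molting, read 8.67, 8.29 and 7.52 in controls and 8.28, 7.88 and 6.92 in RNAi arrays (difference -1.06, SE 0.15, adjusted p = 0.0177). nhr-25, a nuclear receptor of the epidermis, read 8.56, 8.71 and 8.94 in controls and 8.47, 8.75 and 8.41 in RNAi arrays (difference 0.06, SE 0.14, adjusted p = 0.902). Both calls on the list were lost without control replicate 3, and both without RNAi replicate 3.

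Of 7 measured genes of heat shock chaperones, which hold or refold damaged proteins, 3 inducible ones were called lower and the other 4 were not called, with a median over the list of -0.26. hsp-70 read 6.73, 6.84 and 4.19 in controls and 7.15, 7.21 and 4.74 in RNAi arrays, and fell 5.72-fold (difference -2.52, SE 0.09, adjusted p = 0.000324). hsp-16.2, a small heat shock protein, read 9.02, 9.14 and 7.32 in controls and 9.21, 9.12 and 7.09 in RNAi arrays (difference -1.92, SE 0.10, adjusted p = 0.00131). hsp-16.41 read 8.38, 8.66 and 6.49 in controls and 8.69, 8.33 and 6.34 in RNAi arrays (difference -2.10, SE 0.13, adjusted p = 0.00245). Both replicate 3 arrays lay below the 4 others in these genes, and all 3 were called without each array in turn. The hsp-16 genes are close copies, so their probe sets may share signal.

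Genes of the endoplasmic reticulum's unfolded protein response showed 0 calls by limma in 13 measured, with 1 at an unadjusted p under 0.05. Over all genes 1.56% were called lower and 1.25% higher, so 0 of 13 does not set them apart. Of 10 genes of the osmotic response, 2 were lower. hmit-1.1, a myo-inositol transporter induced by high salt, read 5.60, 6.02 and 3.95 in controls and 5.78, 6.13 and 4.12 in RNAi arrays (difference -1.85, SE 0.15, adjusted p = 0.00297). osr-1, which acts in osmotic avoidance and resistance, read 7.46, 7.10 and 5.34 in controls and 5.77, 6.43 and 4.84 in RNAi arrays (difference -1.60, SE 0.23, adjusted p = 0.0184). Neither osmotic gene was called without control replicate 3.

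Among the 15 largest rises were irg-1, pgp-5 and cyp-33C8. irg-1, known for its induction by infection and by blocked translation, read 4.52, 4.87 and 7.30 in controls and 4.81, 4.81 and 6.69 in RNAi arrays, and rose 4.73-fold (difference 2.24, SE 0.18, adjusted p = 0.00297). pgp-5, a P-glycoprotein transporter, read 3.35, 3.68 and 5.45 in controls and 3.43, 3.58 and 4.99 in RNAi arrays (difference 1.71, SE 0.14, adjusted p = 0.00306). cyp-33C8, a cytochrome P450, read 6.82, 7.13 and 8.92 in controls and 6.82, 6.82 and 8.35 in RNAi arrays (difference 1.74, SE 0.13, adjusted p = 0.00281). In all 3 genes both replicate 3 arrays lay above the 4 others, and irg-1 and cyp-33C8 were called without each array in turn.

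Of 73 cytochrome P450 genes 6 were lower (8.22%) and 3 higher (4.11%), where 1.56% and 1.25% of all genes were. The lower ones included cyp-35A2, cyp-35A3 and cyp-35A4, known as enzymes induced by foreign compounds. cyp-35A3 read 8.86, 8.98 and 7.24 in controls and 9.14, 9.46 and 8.18 in RNAi arrays (difference -1.40, SE 0.15, adjusted p = 0.00683). cyp-35A2 and cyp-35A4 fell by 1.05 (SE 0.13, adjusted p = 0.0114) and 1.09 (SE 0.15, adjusted p = 0.0156). Of the 9 P450 calls, 1 was made without control replicate 3 and 6 without RNAi replicate 3.

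UDP-glucuronosyltransferases, which attach sugars to foreign and endogenous compounds, were mostly higher where called, with 7 of 64 higher and 1 lower and a median of -0.01. The shares were 10.9% higher and 1.56% lower, where 1.25% and 1.56% of all genes were. ugt-44 read 6.96, 7.37 and 8.56 in controls and 6.92, 6.66 and 8.16 in RNAi arrays (difference 1.38, SE 0.14, adjusted p = 0.00519). ugt-29 and ugt-31 rose by 1.56 (SE 0.18, adjusted p = 0.00818) and 1.46 (SE 0.18, adjusted p = 0.0109). None of these 8 was called without control replicate 3 or without RNAi replicate 3. Of 43 glutathione transferases, 1 (2.33%) was higher, gst-38 (difference 1.18, SE 0.16, adjusted p = 0.0153). Of 220 C-type lectins 2 were lower (0.909%) and 6 higher (2.73%), and clec-180 fell by 2.03 (SE 0.19, adjusted p = 0.00435). Of all genes 1.25% were higher and 1.56% lower, and how far the shares of the lectins and glutathione transferases differ from these was not tested. None of these 8 lectin calls, nor that of gst-38, was kept without control replicate 3 or without RNAi replicate 3, and 13 lectins were called without RNAi replicate 2.

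Enzymes of fatty acid synthesis included 2 lower genes of 15 (13.3%), where 1.56% of all genes were lower and 1.25% higher. elo-4, a fatty acid elongase, read 8.02, 7.71 and 6.60 in controls and 7.74, 7.66 and 6.13 in RNAi arrays (difference -1.42, SE 0.12, adjusted p = 0.00313), and was called without each array in turn. fat-7, a stearoyl-CoA desaturase, read 6.79, 7.28 and 5.22 in controls and 6.71, 7.20 and 5.69 in RNAi arrays (difference -1.54, SE 0.21, adjusted p = 0.0143). Intestinal genes were called in 2 of 13, the ferritin ftn-1 (difference -1.01, SE 0.13, adjusted p = 0.0135) and the cathepsin B-like protease cpr-1 (difference -0.47, SE 0.08, adjusted p = 0.0369), and both calls were lost when either replicate 3 array was left out. cpr-1 also lost its call under quantile normalization (adjusted p = 0.0561). Of 14 genes of the fasting response none was called by limma, with 5 at an unadjusted p under 0.05.

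Of 33 genes of DNA replication and mitosis, 6 were called lower, none higher, and 27 did not pass the test. In 23 of the 33 replicate 3 lay below both others in both groups, where 18.5% of all genes did, and the median was -0.28. pri-1, the DNA primase subunit, read 6.02, 5.69 and 5.06 in controls and 5.85, 6.04 and 5.08 in RNAi arrays (difference -0.83, SE 0.12, adjusted p = 0.0169). pcn-1, the sliding clamp PCNA, read 8.81, 8.66 and 8.27 in controls and 8.92, 8.92 and 8.20 in RNAi arrays (difference -0.59, SE 0.10, adjusted p = 0.0293). mcm-5, of the replicative helicase, read 9.05, 8.87 and 8.39 in controls and 9.01, 9.08 and 8.42 in RNAi arrays (difference -0.60, SE 0.09, adjusted p = 0.0197). In these 3 genes both replicate 3 arrays lay below the 4 others.

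The other called members of this list were mcm-3, the clamp loader subunit rfc-4 and the mitotic kinase air-1, with differences of -0.58, -0.43 and -0.55. None of the 6 was called without control replicate 3 or without RNAi replicate 3. Histones had 3 of 26 lower, his-3, his-32 and his-64, with differences of -0.53, -0.49 and -0.54 and a median over the list of -0.15. Histone genes are near-identical copies, so these calls may share signal. None of the 3 was kept in any fit that left out a single array, except the fit without RNAi replicate 2, which kept all 3. The proteasome, which degrades ubiquitin-tagged proteins, had 0 of 31 called by limma and 15 at an unadjusted p under 0.05. Its 31 genes all had negative differences, from -0.37 to -0.06, and in 25 replicate 3 lay below both others in both groups. Of all 17118 genes, 2673 had an unadjusted p under 0.05, 9089 had negative differences and 18.5% lay below in both groups.

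The abu genes, whose proteins are thought to line the pharyngeal cuticle, had a median difference of 1.05, with 9 of 11 positive, 0 called by limma and 7 at an unadjusted p under 0.05. Of all 17118 genes, 8024 were positive and 2673 had such a p. The mean log2 value of the abu genes was 5.73, 6.57 and 6.96 in controls and 5.56, 6.0 and 6.39 in RNAi arrays, highest in replicate 3 of each group. abu-10 read 5.38, 6.64 and 7.35 in controls and 4.72, 5.28 and 6.56 in RNAi arrays (difference 1.45, SE 0.33, adjusted p = 0.0819). A second, dim probe set of abu-10 gave 0.17 (adjusted p = 0.45). Without RNAi replicate 2, and likewise without control replicate 2, 4 of the 11 were called. Without control replicate 1 it was 2, and without RNAi replicate 1 it was 0.

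Antimicrobial peptides of the epidermis had a median of 0.52, with 15 of 18 positive, nlp-31 called higher (difference 0.74, SE 0.11, adjusted p = 0.0195) and cnc-3 called lower (difference -0.97, SE 0.14, adjusted p = 0.0202). Without RNAi replicate 2, 9 of the 18 were called, and without control replicate 3 none. Neuronal genes had a median of 0.19 and FMRFamide-like neuropeptides of 0.25, with 0 calls by limma in 20 and 25 genes and 5 and 7 at an unadjusted p under 0.05. Both medians were smaller in controls (0.08 and 0.12) than in RNAi arrays (0.26 and 0.33). Replicate 3 lay above both others in both groups in 12 of the 20 neuronal and 14 of the 25 neuropeptide genes, where 16.1% of all genes did. Of 254 nuclear receptor genes named nhr, 8 were higher (3.15%) and 1 lower (0.394%), where 1.25% and 1.56% of all genes were. They included nhr-115 (difference 1.03, SE 0.14, adjusted p = 0.0135) and nhr-91 (difference -1.21, SE 0.13, adjusted p = 0.00683). Between 0 (without control replicate 3) and 20 (without RNAi replicate 2) of the 254 were called as single arrays were left out, with at most 2 in the other 4 fits.

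Lists of other tissues and of core functions held no called gene by limma. These were body wall muscle (14 genes, median -0.03), pharyngeal muscle (8, 0.10), germ cells (25, -0.07), sperm (31, -0.03), yolk and adult genes (7, -0.10), cytosolic ribosomal proteins (63, -0.01), mitochondrial ribosomal proteins (58, -0.06), oxidative phosphorylation (36, -0.07), chitin genes (34, -0.05) and genes of RNA interference (20, -0.04). Between 0 and 3 genes of each had an unadjusted p under 0.05. The pharyngeal muscle median was -0.17 in controls and 0.45 in RNAi arrays. The mean of that list in RNAi arrays was 7.25, 6.55 and 7.22, so replicate 2 was the low one. Over all genes 1.56% were called lower and 1.25% higher, so lists of this length can hold 0 calls without standing apart. The yolk and sperm lists were dim on every array, with means from 4.26 to 4.70, and stayed so in replicate 3.

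Short lists for other tissues held single calls, where 1.56% of all genes were lower and 1.25% higher. phat-5, of the pharyngeal glands, was higher (difference 1.07, SE 0.20, adjusted p = 0.0455). exc-6, of the excretory canal, and lam-3, a laminin of the basement membrane, were lower (differences -0.67 and -0.57, adjusted p = 0.0481 and 0.0437). Of 34 lysozymes and saposin-like proteins 2 were lower, spp-13 and the invertebrate-type lysozyme ilys-5 (difference -0.77, SE 0.09, adjusted p = 0.00968). None of these was called without control replicate 3 or without RNAi replicate 3.

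**Figure D4:**
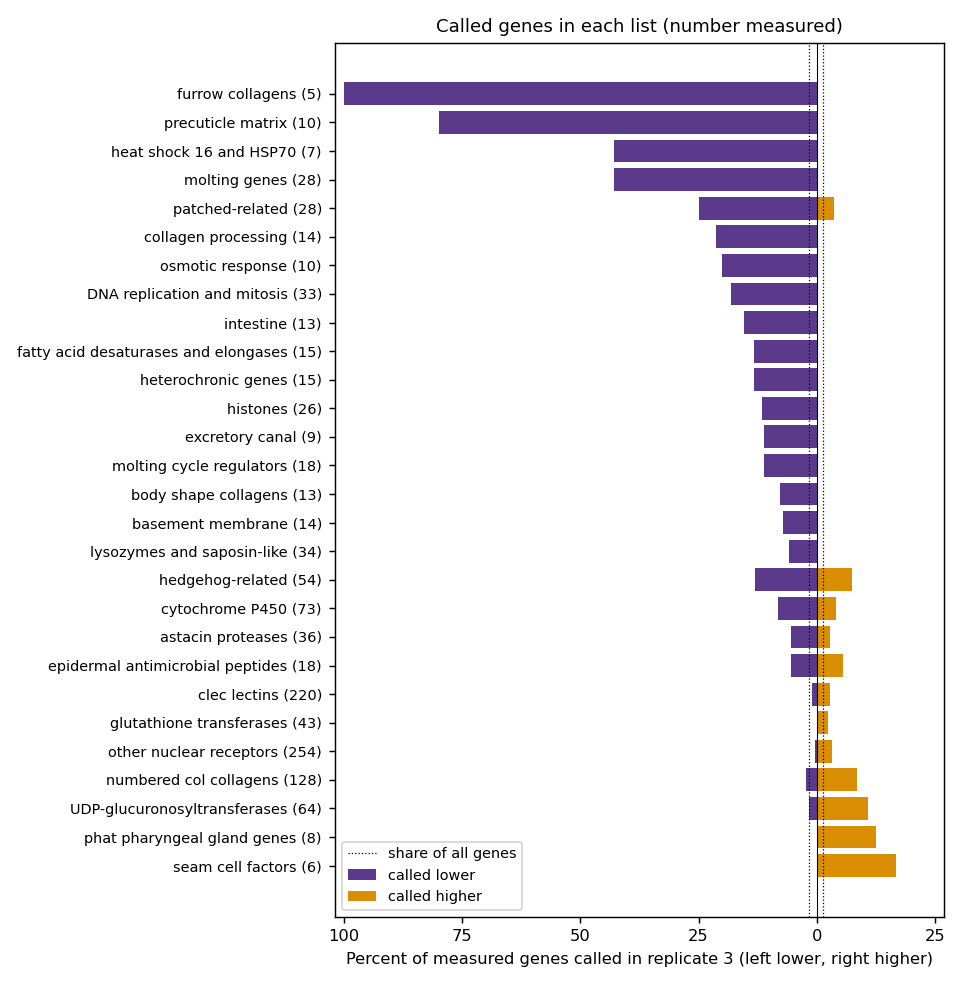
Percent of measured genes called lower (bars to the left) and higher (bars to the right) in replicate 3, for the lists with at least 1 called gene, with the number measured in brackets. Dotted lines mark the shares of all genes, 1.56% lower and 1.25% higher, and the longest bars belong to furrow collagens (5 of 5) and the precuticle matrix (8 of 10).

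Apart from the lists, the 15 largest falls and 15 largest rises were ranked by the smaller of the control and RNAi differences. The falls, beside those given above, included atf-8, a transcription factor of the bZIP family, at 8.20, 7.45 and 5.23 in controls and 6.52, 6.38 and 4.51 in RNAi arrays (difference -2.27, SE 0.23, adjusted p = 0.00569). T26C5.2 read 9.20, 8.78 and 6.36 in controls and 7.80, 7.91 and 5.16 in RNAi arrays (difference -2.66, SE 0.13, adjusted p = 0.00127). The other falls were of genes with clone names only, Y37A1B.7, Y102A11A.5, T06G6.6, R07E3.6, H03E18.1, T03G6.1, C14A4.9 and K08B12.1, with differences from -2.34 to -1.96. By this ranking col-39 led the rises, followed by Y58A7A.5, which read 3.84, 4.41 and 6.87 in controls and 3.80, 4.13 and 5.88 in RNAi arrays (difference 2.33, SE 0.23, adjusted p = 0.0053), and K11H12.4 rose by 1.98 (SE 0.14, adjusted p = 0.0026).

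Leaving out single arrays changed how many probe sets were called. No direction among the 613 could turn, since replicate 3 lay outside both others on the same side in both groups. The fit that left out control replicate 3 called 46 probe sets, and the fit that left out RNAi replicate 3 called 159. There were 34 probe sets called with all arrays and in each fit that left out a single array, 31 lower and 3 higher, among them lep-5, hsp-70, hsp-16.41, hsp-16.2, lpr-3, elo-4, grl-10, cyp-33C8 and irg-1. Without RNAi replicate 2 the count was 1273. With either replicate 3 array left out, the remaining one stands alone and is assumed to vary like the other arrays. With no term for group, wrt-2, wrt-10, daf-6, ptr-11, peb-1, fbn-1, osr-1, nas-4, cyp-35A4, nlp-31, phat-5, lam-3, his-3, atf-8, Y37A1B.7, Y102A11A.5, R07E3.6, K08B12.1 and spp-13 were also not called (adjusted p from 0.0647 to 0.358). In the model with an interaction, nas-9, grd-10, rfc-4, air-1, his-3, his-64, exc-6, lam-3 and phat-5 were not called (adjusted p from 0.0544 to 0.0763).

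The term for replicate 3 also bore on the study's own comparison. With it, 2 probe sets were called between nhr-23 RNAi and control arrays, and with no such term 0 were. The 2 were spp-13 (difference of RNAi from control -1.66, SE 0.12) and the nhr-23 probe set that was dimmer in controls (2.72, SE 0.21), both at adjusted p = 0.0483 by limma. spp-13, a saposin-like protein, read 7.81, 7.67 and 6.36 in controls and 5.88, 6.31 and 4.67 in RNAi arrays, so it was also lower in replicate 3 (difference -1.40, SE 0.13, adjusted p = 0.00448). Its RNAi value lay below the control value at each replicate number.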

How the data were processed

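The authors deposited log2 values for 22625 probe sets on 6 arrays. Per the submitters' processing notes, MAS5, RMA and Partek were used, in roles and versions that are not stated, so background correction and normalization are known only from the values. Of the probe sets, 77 array controls were left out and 22548 tested, with no filter. Platform annotation gave 1 gene symbol to 20766 (20701 updated through WBcel235), several to 887 and none to 895. The probe set with the highest mean stood for each of 17118 genes. The sources used here do not give a genome build for the array. The number of arrays limits the precision.

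limma 3.58.1 in R 4.3.3 (lmFit, eBayes, 2-sided) fitted group and replicate 3. Tests were checked on simulated data. The arrays of replicate 3 were chosen for comparison, and 45 gene lists drawn up, with earlier results of these data known. Genes named whatever their values were nhr-23, nhr-25, lin-42, the furrow collagens, dpy-5, dpy-13, sqt-1, rol-6, bli-1, col-12, mlt-10, nas-37, noah-1, lin-14 and lin-28. To these come the 15 largest rises and falls, up to 6 called members of each list, and otherwise the member with the smallest p. The threshold's neighbours were chosen after their values were seen. Deviations from group means correlated between same-numbered arrays at 0.58, 0.167 and 0.573 across probe sets. Control replicate 2 correlated better with RNAi replicate 1, at 0.233, so the pairing of number 2 rests on weak evidence. The replicate numbers come from the titles, no label pairs the arrays, and these correlations did not enter the fits. The 0.573 of number 3 is the correlation of the compared differences themselves, so it is not separate evidence of pairing.

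Alternatives were quantile normalization, median centring, a filter on dim probe sets, 1 probe set per gene, no probe sets ending in _s_at or _x_at, a trended robust prior, other model terms and each array left out.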

Additional observations from a re-analysis of the deposited data

How the results depend on the processing

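Under the alternatives that kept all arrays, between 424 and 703 probe sets were called against 613. Leaving out single arrays, or all arrays of replicate 1 or 2, gave 46 to 1273, with 376, 359 and 46 when the left-out array was control 1, 2 or 3, and 264, 1273 and 159 when it was RNAi 1, 2 or 3. With both arrays of replicate 1 left out 205 were called, and with both of replicate 2, 1250. Fewer arrays enter each of these fits, and beyond that the cause was not tested. The 613 kept their sign wherever they were tested. With arrays left out this was fixed in advance, since replicate 3 lay outside both others on the same side in both groups. Of 4 genes that were not called, signs turned: bli-1 ranged from -0.14 to 0.23, dpy-13 from -0.009 to 0.266, dpy-5 from -0.729 to 0.118 and nhr-25 from -0.193 to 0.306 over the arrays left out. Between nhr-23 RNAi and control arrays, 2 probe sets were called with a term for replicate 3, 2 with the replicate block of 3 levels and 0 with no such term. Of the called probe sets, 207 end in _s_at or _x_at and can read more than 1 transcript. No scanner values or detection calls were used, so signal over background is not known and differences of dim probe sets may be compressed.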

Other observations

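Some gene families, grouped by the name of their genes, were counted after their values were seen, and these counts are descriptions without a test. They are not all separate from the lists, since lpr-1, lpr-3, mcm-3 and mcm-5 were counted there too. Among 14 genes named bus, known from mutants with altered surface and resistance to a bacterium that sticks to the cuticle, 8 were called lower and 0 higher, with a median difference of -0.78. Of the 7 lpr lipocalins, 5 were lower, with a median of -1.68. All 8 measured mcm genes lay below both other replicates in both groups, with 2 called and a median of -0.44. Of 40 transthyretin-related ttr genes 3 were higher and 0 lower, and of 12 lec galectins 2 were higher, with medians of 0.09 and 0.38. Over all 17118 genes, 1.56% were called lower and 1.25% higher.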
